A study of Mus musculus with 12 samples.

Results

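The 91 genes described here were those with more RNA after 1 day of bone morphogenetic protein 2 (BMP2) in mouse pre-osteoblasts, chosen from 23358 rows of a gene count table. Each had to hold at least 2 CPM (counts per 1000000 counts of the library, leaving out the ribosomal RNA precursor Rn45s) and at least 1.5 times the level of the matched library without BMP2 in all 4 day 1 libraries with BMP2, which 0.755% of the 12056 genes tested below did. The day 1 values therefore chose the members and are given as a description, with no test. What was tested is the effect of BMP2 and of GSK126 on the same genes in the 6 libraries of day 6, which the choice did not use. All 91 members were among the genes tested, which had at least 1 CPM in at least 2 of the 12 libraries. On day 6 alone 80 members reached that level in at least 2 libraries.

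RNA was sequenced from MC3T3 sc4 cells, 1 clonal subline of a calvarial osteoblast precursor line from C57BL/6 mice, at passage 12. All cultures were in osteogenic medium, with ascorbic acid and β-glycerol phosphate, for 1 or 6 days. On each day the 6 conditions were vehicle, BMP2 at 10 ng/ml, BMP2 at 50 ng/ml, 5 µM GSK126, and GSK126 with either BMP2 dose, with fresh medium and agents after day 3. Each of the 12 conditions has 1 library, so libraries with a treatment level in common served as replicates. The p-values reflect no more than the scatter among these libraries, which the labels do not tie to separate cultures. In the tests of BMP2, dose and GSK126, this scatter cannot be told from a BMP2 effect that differs with GSK126. A gene whose BMP2 ratios differed between the GSK126 levels therefore had a wider error and was less readily called. GSK126 inhibits EZH2, the enzyme that methylates histone H3 for Polycomb repression.

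BMP2 binds a pair of receptor kinases at the cell surface, which phosphorylate the transcription factors SMAD1, SMAD5 and SMAD9, and these enter the nucleus with SMAD4. Among the genes that this pathway switches on early are its own inhibitors, such as Smad6, Smad7 and Bambi, the Id genes, and in bone-forming cells the factors that commit a precursor to the osteoblast fate, of which Sp7 (osterix) is the best known. Mature osteoblasts then secrete a collagen matrix with mineral-binding proteins such as bone sialoprotein, the product of Ibsp.

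The promoters of 61 members (85 start sites, 250 bases before to 50 bases after each start, RefSeq, GRCm38.p6) could be read. GGCGCC, a GC-rich core bound by BMP SMADs, was in 29.4% of the members' promoters, in 21.1% of 12290 promoters of the genes tested and in 11.9% of all 32851 promoters of that length, searched on both strands. A longer element, GGCGCC followed after any 5 bases by GTCT, was in 1 member promoter (1.18%, against 0.106% of promoters of tested genes and 0.0731% of all), that of Irf5, an interferon regulatory factor. GTCTAGAC was also in 1 (1.18%, against 0.228% and 0.213%), that of Smad6, and GGGCGG, the core of an SP factor site, was in 55.3%, against 63.0% and 35.7%. A match of letters is a description, not a bound site. The windows below lie before the start site and outside annotated exons, and hold GGCGCC or the longer element, in capitals (GGGCGG is not marked). Id2, Smad9, Dlx2, Alpl and Irf5, in that order, are at chr12:25096283-25096342 (minus strand), chr3:54755496-54755571 (plus strand), chr2:71546813-71546888 (minus strand), chr4:137796410-137796485 (minus strand) and chr6:29526493-29526577 (plus strand). On day 6 each of these members was at least 1.5 times its control in both 50 ng/ml libraries but not in all 4. These windows were picked for display, and GGCGCC was also in promoters of members with other day 6 patterns. Among them were Ptgs2, Pgf and Insc (1.5 times in all 4), Tcf7 (only without GSK126), and Rhou and Slc43a2 (in none). A link between the element and the day 6 pattern was not tested.
Id2: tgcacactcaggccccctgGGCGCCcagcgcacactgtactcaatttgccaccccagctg
Smad9: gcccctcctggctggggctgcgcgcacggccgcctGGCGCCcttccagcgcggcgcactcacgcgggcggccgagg
Dlx2: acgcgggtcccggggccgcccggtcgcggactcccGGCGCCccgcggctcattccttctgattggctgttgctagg
Alpl: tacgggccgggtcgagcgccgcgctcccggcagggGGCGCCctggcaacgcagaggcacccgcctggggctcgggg
Irf5: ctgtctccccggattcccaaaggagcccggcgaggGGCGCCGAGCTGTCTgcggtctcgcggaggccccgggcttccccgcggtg

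Libraries held 62684170 to 103166426 counts without Rn45s, whose own share was 8.96% to 11.71% on day 1 and 13.1% to 21.66% on day 6. Every count was even, so a read pair appears to count as 2, and 3 read pairs, the floor used here for values near 0, came to 0.0582 to 0.0957 CPM. The members together made up 0.509% to 1.68% of a library's counts. All 8 osteoblast lineage markers checked, among them Runx2, Sp7, Alpl and Col1a1, were detected and tested. In such bulk RNA, fewer cells of a type and less RNA per cell cannot be told apart.

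On day 1 the median ratio of the 91 members to the library without BMP2 was 1.78 for the 10 ng/ml library and 2.27 for the 50 ng/ml library, and with GSK126 1.80 and 2.16. The largest minimum over the 4 libraries was that of Pparg, the nuclear receptor that drives fat cell differentiation, at 4.94 times. It was followed by Ibsp at 4.80 times, Fibcd1, a chitin-binding membrane protein, at 3.98 times, Tnn, which encodes the matrix protein tenascin W, at 3.60 times, and Cd244, a receptor of the SLAM family on natural killer cells, at 3.33 times. At the other end, 44 members had a smallest ratio under 1.7, and 25 members were at 2 or more in all 4 libraries. Just inside the threshold were Zfp862 and Orai2 (smallest ratio 1.503 each) and Krt14 (1.513). Just outside were St3gal1 at 1.492 and Chn1 and Zfp703 at 1.491. The level threshold kept out 10 genes whose BMP2 libraries reached only 1 to 2 CPM at their lowest, among them the Notch and BMP target Hey1, at 1.92 CPM in the 10 ng/ml library.

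**Figure D1:**
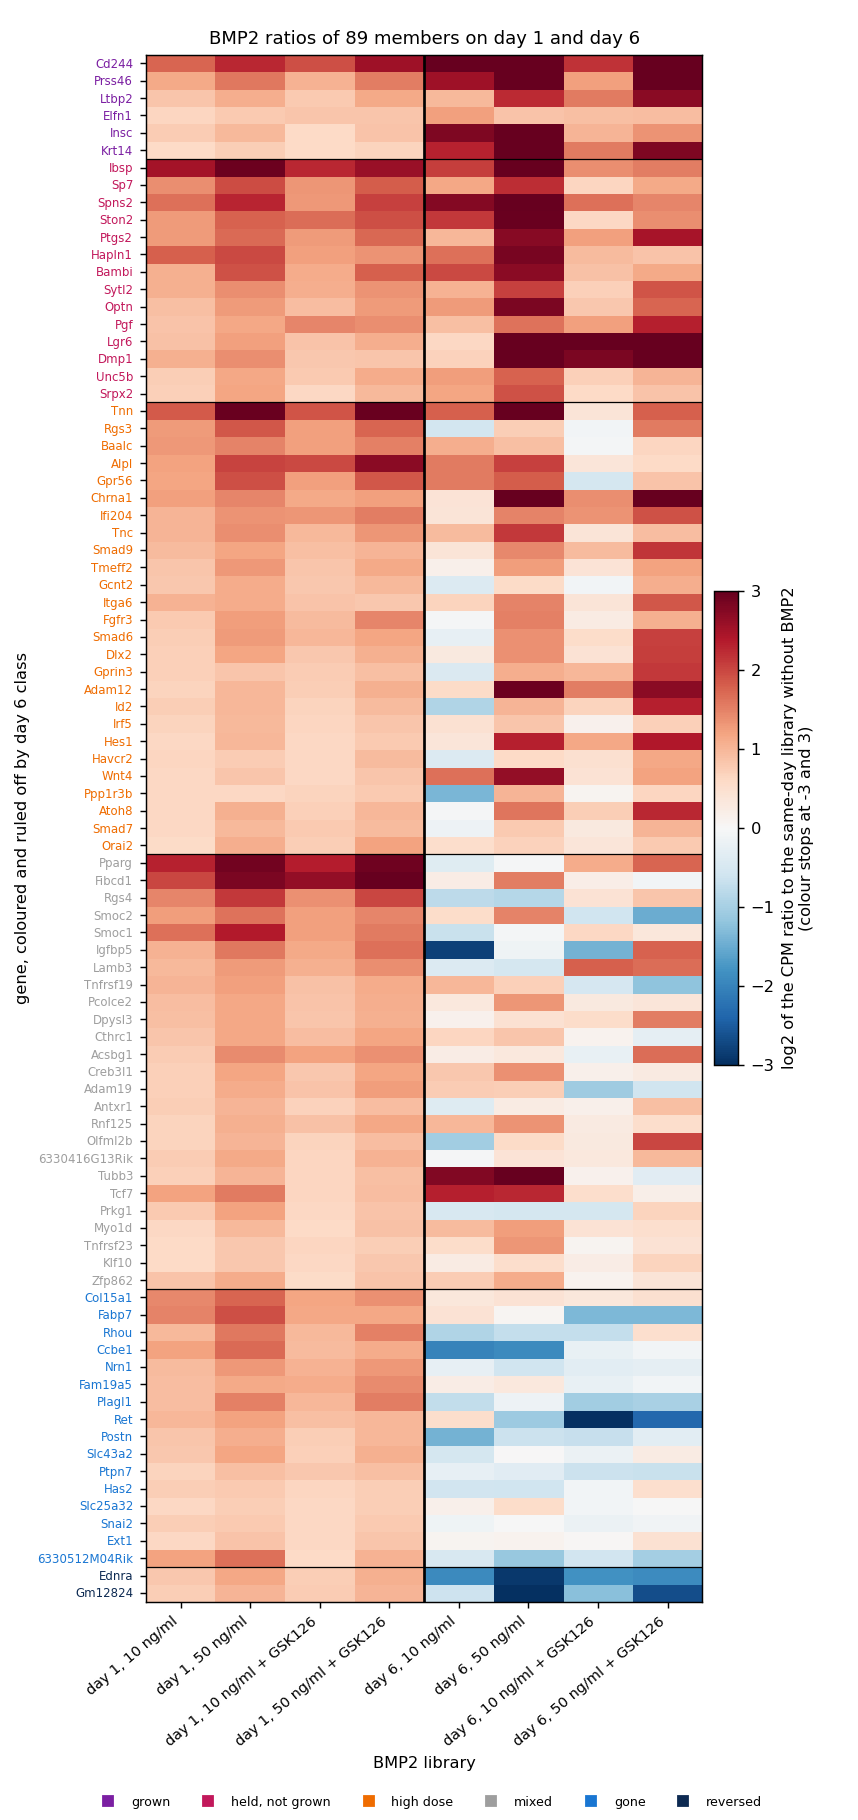
Heat map of the log2 CPM ratio of 89 of the 91 members (rows) in the 4 BMP2 libraries of day 1 and the 4 of day 6 (columns), each against the library of the same day and GSK126 level without BMP2. The day 1 columns, which chose the members, are red throughout; on day 6 the 20 genes at the top stay red in all 4 columns, the 26 below them are red at 50 ng/ml, and the last 18 are pale or blue.

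Most members were higher at the higher dose on day 1. The level at 50 ng/ml was above that at 10 ng/ml at both GSK126 levels in 89 members on day 1 (97.8%, against 23.7% of the genes tested), but the step was small: its median was 1.28 times without GSK126 and 1.20 times with it. At least 1.5 times higher at 50 than at 10 ng/ml in both settings were 6 members, Tnn, Rgs4, Spns2, Alpl, Gpr56 and Bambi (6.59%, against 0.158%). The median ratio of GSK126 to no GSK126 on day 1 was 1.07 without BMP2, 1.09 at 10 ng/ml and 1.02 at 50 ng/ml. It was above 1 at all 3 BMP2 levels in 47 members (51.6%, against 29.5% of the genes tested), below 1 at all 3 in 12 (13.2%, against 21.8%), and at least 1.5 at all 3 in none of the 91 (0.158% of the genes tested); these ratios share libraries with the choice of members and were not tested.

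On day 6 the members no longer had 1 pattern. Of the 91 members, 37 (40.7%) were still at least 1.5 times the matched control at 10 ng/ml, where 5.11% of the genes tested were, and 61 (67.0%, against 7.42%) at 50 ng/ml. With GSK126 these counts were 31 (34.1%, against 3.56%) and 58 (63.7%, against 5.47%). The median ratio was 1.31, 2.17, 1.28 and 1.89 in the same order, where the genes tested had medians of 0.955, 0.870, 0.955 and 0.894. At or under 1/1.5 were 12 members at 10 ng/ml (8.71% of the genes tested), 10 at 50 ng/ml (19.1%), 11 at 10 ng/ml with GSK126 (6.94%) and 11 at 50 ng/ml with GSK126 (13.1%). All 4 ratios were above 1 in 46 members (50.5%, against 11.5%) and below 1 in 9 (9.89%, against 38.4%). Set beside day 1, the median was lower at 10 ng/ml and nearly as high at 50 ng/ml. The rule held every day 1 ratio to at least 1.5, while those of day 6 were free to fall. The medians are therefore not alike in kind, and their difference was not tested.

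**Figure D2:**
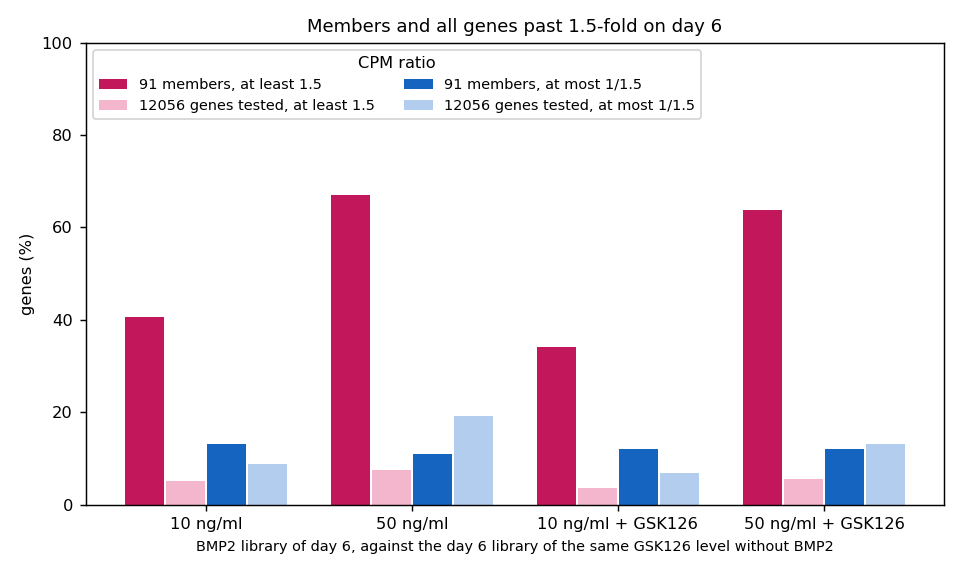
Share of genes (percent) at or past 1.5-fold on day 6 in each BMP2 library against the library of the same GSK126 level without BMP2, for the 91 members (dark bars) and the 12056 genes tested (pale bars), higher in red and lower in blue. At 50 ng/ml 67.0% of the members are at least 1.5 times higher without GSK126 and 63.7% with it, while the members' shares at or under 1/1.5 lie between 11% and 13.2%.

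A ratio of at least 1.5 in all 4 day 6 libraries was kept by 20 members (22.0%, against 1.44% of the genes tested). In 6 of them (6.59%, against 1.23%) every ratio was larger than on day 1: Cd244, Prss46, Ltbp2, Elfn1, Insc and Krt14. This growth was not tested, and some of its steps were small or rest on few reads. At 50 ng/ml without GSK126 Elfn1 went from 1.73 to 1.81. At 10 ng/ml without GSK126 Ltbp2 went from 1.78 to 1.97, on 22 read pairs against 13 in its day 6 control. The other 14 of the 20 were Ibsp, Sp7, Spns2, Ston2, Ptgs2, Hapln1, Bambi, Sytl2, Optn, Pgf, Lgr6, Dmp1, Unc5b and Srpx2 (15.4%, against 0.216%). The rule held the members' day 1 ratios to at least 1.5, which makes growth harder for them than for other genes. Shares split by growth are therefore not alike in kind. Of the 174 genes tested that kept the ratio, 148 had every ratio larger than on day 1. A further 27 members (29.7%, against 1.97%) kept the ratio in both 50 ng/ml libraries but not in all 4, and no member kept it at 10 ng/ml with and without GSK126 while losing it at the high dose (0.431% of the genes tested). In 26 members the pattern was mixed (28.6%, against 7.28%). No ratio reached 1.5 in 16 (17.6%, against 85.5%), and Ednra and Gm12824 were at or under 1/1.5 in all 4 libraries (2.2%, against 3.38%). When the rule that chose the members was applied to day 6 itself, 111 genes passed it (0.921% of the genes tested), of which 14 were members, or 15.4% of the day 1 genes and 12.6% of the day 6 genes. The 6 members that kept the ratio but failed this rule, Lgr6, Elfn1, Prss46, Krt14, Ltbp2 and Pgf, were under 2 CPM in at least 1 BMP2 library.

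**Figure D3:**
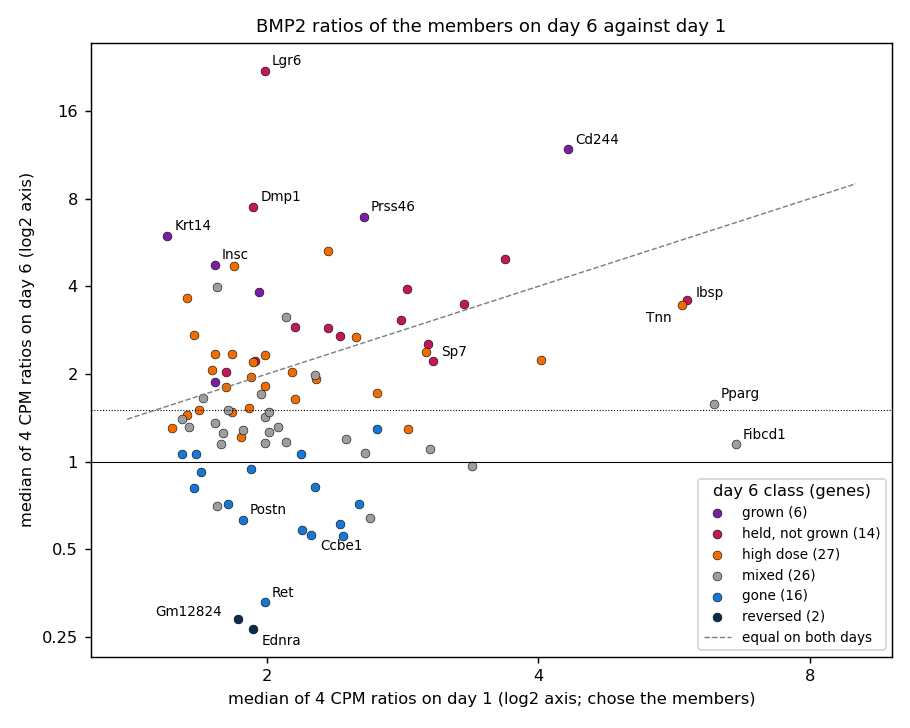
Median of the 4 CPM ratios of each member on day 6 (vertical, log2 axis) against that on day 1 (horizontal, log2 axis), coloured by day 6 pattern, with lines at 1, at 1.5 (dotted) and at equal ratios (dashed). Lgr6, Dmp1, Cd244, Prss46, Krt14 and Insc lie above the dashed line, Pparg and Fibcd1 far below it, and Ednra and Gm12824 at the bottom.

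Tested over the 6 libraries of day 6 (edgeR quasi-likelihood test, mean of both doses against none, Benjamini-Hochberg adjusted p at most 0.05 over all 12056 genes), 28 members rose with BMP2 (30.8%, against 3.16% of the genes tested) and 2 fell (2.2%, against 5.56%). The median log2 fold change of the 91 members was 0.78, and that of all genes tested 0.00. The 28 were 14 of the 20 members that kept the ratio everywhere, 12 of the 27 high-dose members, Klf10 of the mixed members and Col15a1, whose ratios stayed under 1.5. The count was 9 without the 10 ng/ml library (0.531% of the genes tested) and 7 without the 10 ng/ml library with GSK126 (0.423%), so that calls were fewer over all genes too. It was 43 without the GSK126 library (4.82%) and 25 to 39 without any other (2.24% to 5.05%). The rises of Ptgs2, Cd244, Sytl2, Adam12 and Hes1 and the falls of Ednra and Gm12824 kept an adjusted p at most 0.05 in all 13 alternative analyses, each library left out included, with largest adjusted p-values from 0.030 (Ptgs2) to 0.045 (Ednra). Of the 27 rises that are reported by name, 22 lost it in at least 1 alternative. The number of alternatives ran from 1 each for Lgr6 and Itga6 to 6 for Smad7 and 7 for Elfn1 (each under library size scaling too). Of these 22 rises, 19 lost it without the 10 ng/ml library and 21 without the 10 ng/ml library with GSK126. Scaled by library size alone, the median gene shifted by -0.121 on the log2 scale and the members' calls were 27 higher and 3 lower, while those over all genes went from 381 higher and 670 lower to 275 and 1124.

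**Figure D4:**
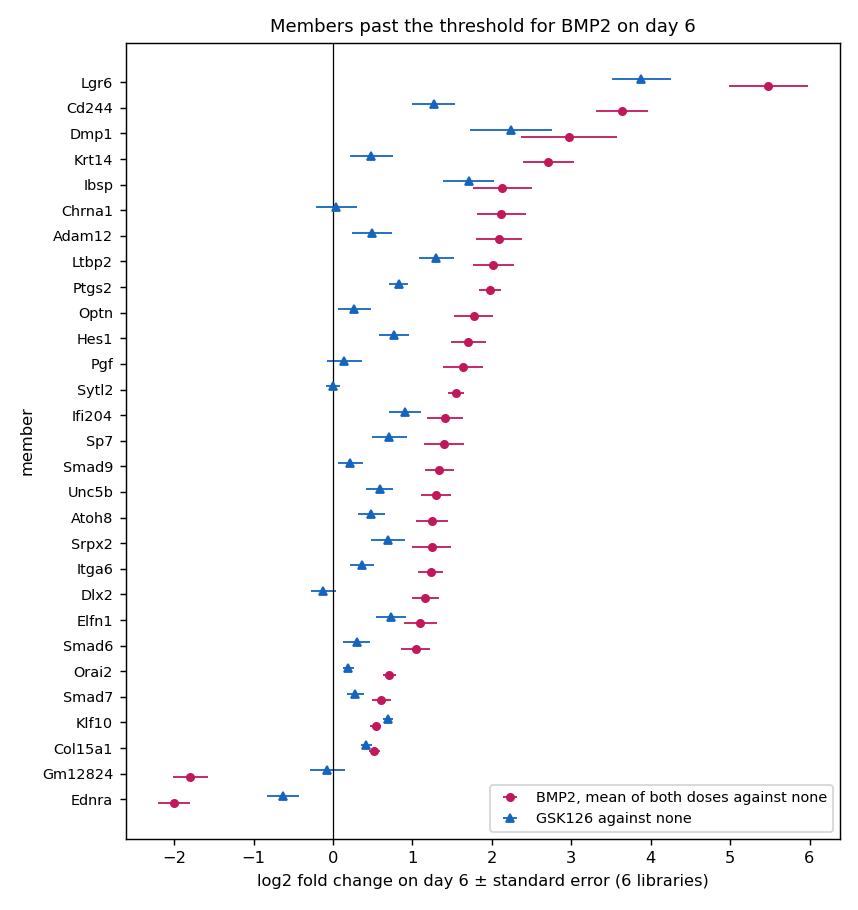
Log2 fold change on day 6 ± standard error (6 libraries) for 29 of the 30 members past the threshold for BMP2, with the BMP2 effect as circles and the GSK126 effect as triangles. The BMP2 estimates run from 5.48 for Lgr6 to -2.00 for Ednra, and the GSK126 estimate of Lgr6, at 3.88, is the largest.

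Among the inhibitors of BMP and related signals, Smad6 and Smad7, the inhibitory SMADs, and Smad9, a receptor-activated SMAD with weak activity, rose with BMP2 on day 6. Bambi, a decoy receptor without a kinase domain, fell just short, at 1.73 ± 0.36 (unadjusted p = 0.0044, adjusted p just above the threshold). On day 1 Smad6 stood at 59.9, 99.4 and 146 CPM at 0, 10 and 50 ng/ml without GSK126 and at 61.5, 122 and 139 CPM with it. On day 6 the same series were 17.9, 15.2 and 46.3 CPM, and 15.2, 22.4 and 63.2 CPM. Its level was thus lower than on day 1 in every condition, and on day 6 the 10 ng/ml library without GSK126 lay below its control, while both 50 ng/ml libraries lay above all others; the log2 fold change was 1.04 ± 0.18 (adjusted p = 0.037). Smad9 rose by 1.34 ± 0.18 (adjusted p = 0.019) with day 6 levels of 5.71, 7.42 and 15.6 CPM, and 4.80, 9.24 and 21.3 CPM with GSK126, against 26.0 to 58.9 CPM on day 1. Smad7 rose by 0.61 ± 0.12 (adjusted p = 0.047), and at 10 ng/ml without GSK126 its ratio was 0.894. Bambi, at 1.5 times or more in all 4 libraries, stood at 4.00, 15.7 and 26.1 CPM, and 8.42, 15.4 and 18.5 CPM with GSK126. The 3 SMADs therefore had a ratio of at least 1.5 in both libraries at 50 ng/ml but not in all 4, and Bambi at both doses.

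Of 12 transcription factors, 5 rose with BMP2 on day 6: Sp7, Hes1, Atoh8, Dlx2 and Klf10. Counts of rises in this and the other role groups stand beside 30.8% of all members and 3.16% of the genes tested. The groups were made after the members were seen, and differences between them were not tested. Sp7 (chr15:102357177-102366271) was at 70.2, 184 and 271 CPM on day 1 and 78.8, 198 and 276 CPM with GSK126. The day 6 levels were 114, 256 and 532 CPM, and 264, 414 and 578 CPM with GSK126. The order by dose was the same in all 4 series, and Sp7 rose by 1.4 ± 0.25 (adjusted p = 0.037). Hes1, a repressor of the Notch pathway, rose by 1.7 ± 0.22 (adjusted p = 0.019), with 2.59, 3.34 and 13.1 CPM on day 6 without GSK126 and 3.55, 7.91 and 18.6 CPM with it. Atoh8, a basic helix-loop-helix factor, rose with an adjusted p of 0.028 (4.46, 4.32 and 13.5 CPM, and 4.31, 7.17 and 20.6 CPM with GSK126), and Dlx2, a homeobox factor of the skull and face, rose by 1.16 ± 0.17 (adjusted p = 0.025); both were nearer their controls at 10 than at 50 ng/ml. Klf10, a TGF-beta inducible zinc finger factor, rose by 0.54 ± 0.07 (adjusted p = 0.019) although its day 6 ratios ran only from 1.17 to 1.58. Id2, an inhibitor of helix-loop-helix factors and an early BMP target, was at 7.25, 3.90 and 14.6 CPM without GSK126 and 4.19, 6.71 and 21.1 CPM with it; its ratio at 10 ng/ml was 0.539 without GSK126 and 1.60 with it, and its change did not pass the test (0.85 ± 0.35, adjusted p = 0.20).

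Of the other transcription factors, Irf5 was at 1.77 and 1.65 times its control at 50 ng/ml and under 1.5 times at 10 ng/ml, Pparg, Tcf7 and Creb3l1 were mixed, and Plagl1 and Snai2 had no ratio of 1.5 left. Pparg was at 0.427, 2.11 and 3.15 CPM on day 1 and 0.483, 2.48 and 3.65 CPM with GSK126. On day 6 it was at 0.231, 0.179 and 0.223 CPM without GSK126 and 0.230, 0.501 and 0.777 CPM with it, so a ratio above 1.5 remained only in the 2 libraries that also held GSK126. Other adipocyte markers were low: of 10 listed, Adipoq, Plin1, Lep, Cidec and Retn were at or under 3 read pairs in every library, and the list without Pparg summed to 4.69 to 5.51 CPM without BMP2 and 3.69 to 5.20 CPM with it on day 1, and to 9.52 to 10.4 CPM and 7.74 to 8.29 CPM on day 6. Tcf7, a factor of Wnt signalling, was at 3.63 to 12.7 CPM in the day 1 libraries and at 46.4, 235 and 223 CPM on day 6 without GSK126, and 186, 271 and 211 CPM with it. Its ratio was 5.07 and 4.81 without GSK126 but 1.45 and 1.13 with it, and the mean change was not called (1.34, adjusted p = 0.16). Creb3l1, a factor activated at the endoplasmic reticulum of osteoblasts, had the same pattern, with ratios of 1.75 and 2.60 without GSK126 and 1.11 and 1.21 with it. Plagl1, an imprinted zinc finger factor, and Snai2, a repressor of epithelial genes, had day 6 ratios below 1 in all 4 libraries, from 0.484 to 0.895 for Plagl1 and from 0.884 to 0.985 for Snai2.

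Matrix and mineral genes were the largest group, with 19 members, of which 5 rose with BMP2 on day 6 (Ibsp, Dmp1, Ltbp2, Srpx2 and Col15a1) and none fell past the threshold. Ibsp (chr5:104299287-104311472, mm10, as the deposited table places it, like the positions below), which binds hydroxyapatite, was at 4.88, 27.5 and 37.4 CPM on day 1, and 9.08, 43.6 and 54.8 CPM with GSK126. By day 6 the levels were 288, 1220 and 2500 CPM, and 1550, 4050 and 4540 CPM with GSK126. Every day 6 library lay above every day 1 library, the ratios were 4.24 and 8.67 without GSK126 and 2.61 and 2.92 with it, and Ibsp rose by 2.13 ± 0.37 (adjusted p = 0.035). Dmp1, an acidic matrix protein of osteocytes from the same gene cluster (chr5:104202617-104214102), lay within 5.85 to 16.4 CPM on day 1 and was at 11.4, 18.4 and 90.4 CPM on day 6 without GSK126 and 17.6, 125 and 758 CPM with it. The library with 50 ng/ml and GSK126 alone stood 43.0 times above its control; the BMP2 effect was 2.97 ± 0.60 (adjusted p = 0.049). Ltbp2, a latent TGF-beta binding protein of microfibrils, was at 12.3 to 27.4 CPM in the day 1 libraries and at 0.333, 0.656 and 1.56 CPM, and 0.612, 1.81 and 4.03 CPM with GSK126, on day 6. Its ratios were larger than on day 1, between 1.97 and 6.58, and it rose by 2.02 ± 0.26 (adjusted p = 0.019). Srpx2, a sushi-repeat protein, rose by 1.24 ± 0.24 (adjusted p = 0.044). Col15a1, a basement membrane collagen, rose by 0.52 ± 0.07 (adjusted p = 0.022) with ratios of 1.27 to 1.39, after day 1 ratios of 2.28 times or more.

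Alpl and the tenascins showed wide ratios that the test did not call. Alpl, the alkaline phosphatase that frees phosphate for mineral, stood at 1.10, 2.55 and 4.50 CPM on day 1 and 0.846, 3.35 and 5.48 CPM with GSK126. After 6 days they were 14.9, 43.9 and 61.6 CPM, and 33.2, 43.0 and 50.4 CPM with GSK126, and the library with GSK126 alone was above the vehicle library. Neither the BMP2 effect (1.21 ± 0.33, adjusted p = 0.091) nor the GSK126 effect (0.31 ± 0.30, adjusted p = 0.55) was called. Tnn was at 37.1, 134 and 290 CPM on day 1, nearly the same with GSK126 (34.0, 127 and 266 CPM), and at 73.3, 252 and 894 CPM on day 6, against 142, 186 and 487 CPM with GSK126 (1.94 ± 0.43, adjusted p = 0.058). Tnc, tenascin C, was at 607, 1180 and 2650 CPM, and 1630, 2110 and 3100 CPM with GSK126 (1.20, adjusted p = 0.063). Hapln1, a link protein of cartilage matrix, was at 3.46, 10.9 and 25 CPM on day 6, and 16.5, 31.6 and 29.8 CPM with GSK126 (1.65, adjusted p = 0.086). The 14 cartilage markers without Hapln1 summed to 3160 to 3670 CPM without BMP2 and 4130 to 5270 CPM with it on day 1, and to 1120 to 1860 CPM and 992 to 2410 CPM on day 6, with Acan at or under 3 read pairs throughout; their part in the result was not tested.

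Postn was highest with BMP2 on day 1 and without it on day 6. Periostin, its product, is a matrix protein of the periosteum. On day 1 the gene was at 1380, 2470 and 2940 CPM, and 1470, 2480 and 2920 CPM with GSK126. The day 6 series were 3690, 1390 and 2370 CPM, and 1330, 828 and 1060 CPM with GSK126. The highest day 6 library was therefore vehicle, and all 4 ratios were below 1 (0.377 to 0.797), though the BMP2 effect was not called (-0.65 ± 0.17, adjusted p = 0.082). Has2, the hyaluronan synthase, and Ext1, which builds heparan sulphate chains, had no ratio of 1.5 or more left, with ranges of 0.661 to 1.42 and 1.02 to 1.38. Ccbe1, a secreted factor of lymphatic growth, was at 14 read pairs or fewer in each day 6 library. The calcium-binding Smoc1 and Smoc2, the laminin chain Lamb3, and Pcolce2, Cthrc1 and Olfml2b were mixed: Lamb3 was at 3.48 and 3.21 times its control with GSK126 and at 0.754 and 0.692 times without it, while Smoc2 was at 1.47 and 2.80 times without GSK126 and at 0.663 and 0.358 times with it.

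**Figure D5:**
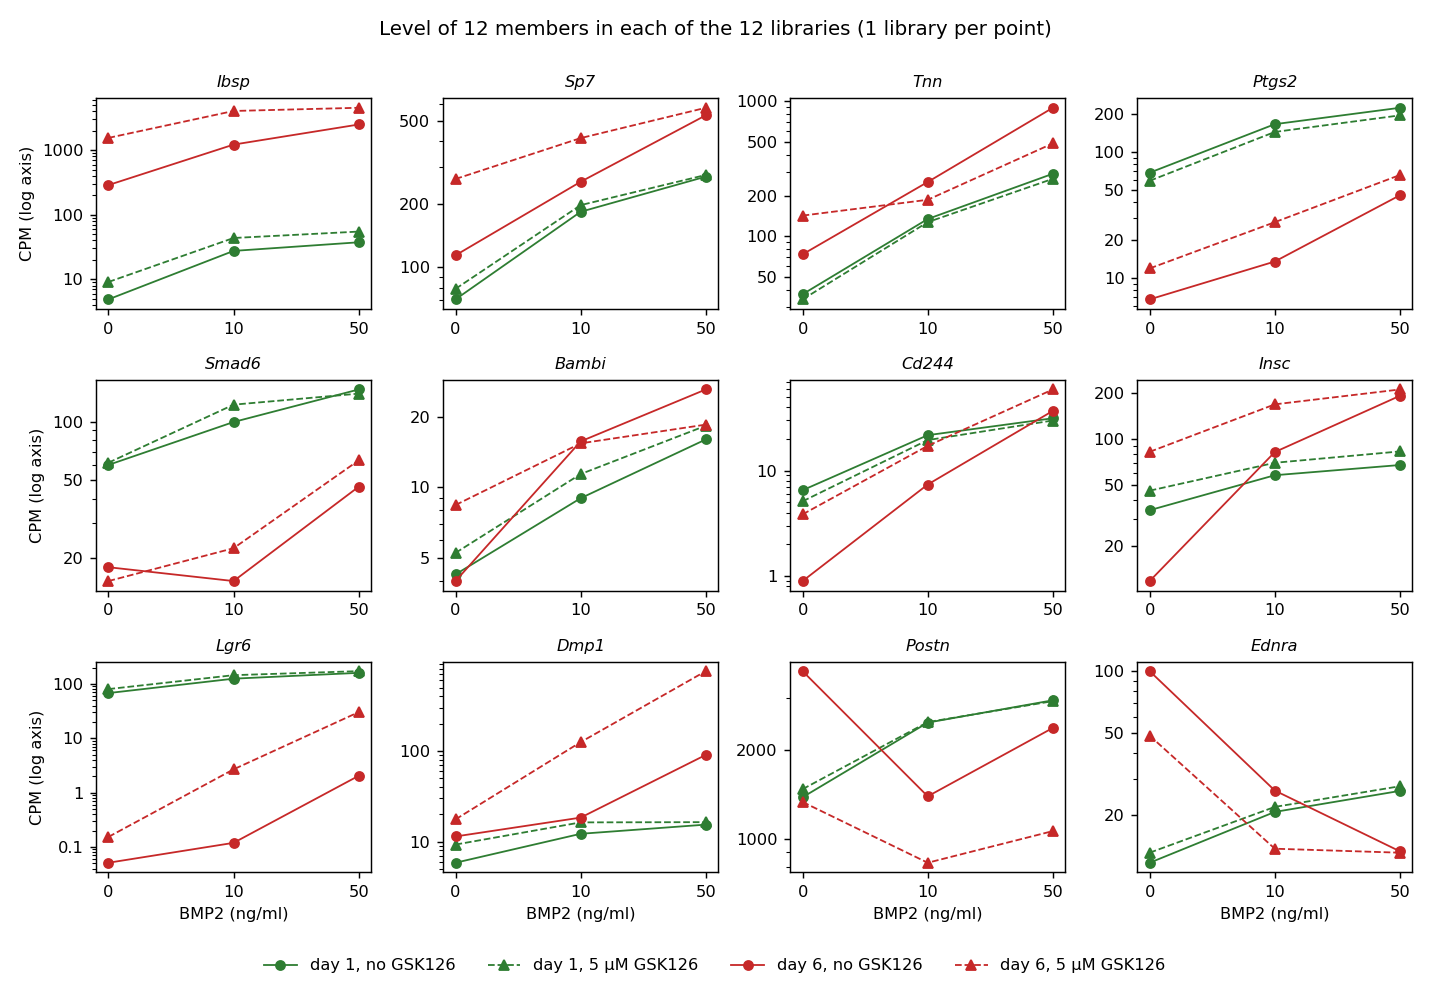
CPM (log axis) of 12 members at 0, 10 and 50 ng/ml BMP2 on day 1 (green) and day 6 (red), without GSK126 (circles, solid lines) and with 5 µM GSK126 (triangles, dashed lines); each point is 1 library and each panel has its own scale. The day 1 lines of all 12 genes go up with dose, while on day 6 those of Ednra go down, Postn dips at 10 ng/ml, and those of Smad6 go up chiefly between 10 and 50 ng/ml.

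Among 17 ligands, binding proteins and receptors, 5 rose with BMP2 on day 6 and 1 fell. Lgr6, a receptor for R-spondins that amplifies Wnt signals (chr1:134986353-135105276), was at 67.9, 125 and 160 CPM on day 1, and 80.4, 145 and 172 CPM with GSK126. On day 6 few reads were left without BMP2: 2 read pairs in vehicle (0.0512 CPM, 95% counting interval 0.0062 to 0.185) and 6 with GSK126 (0.153 CPM). It reached 0.119 and 2.04 CPM with BMP2, and 2.68 and 30.3 CPM with BMP2 and GSK126. The 10 ng/ml library held 4 read pairs, so its place among the genes that kept the ratio rests on very few reads, but Lgr6 rose by 5.48 ± 0.50 (adjusted p = 0.011), the largest estimate among the members. Chrna1, an acetylcholine receptor subunit, rose by 2.12 ± 0.31 (adjusted p = 0.023), with 0.564, 0.745 and 4.50 CPM and, with GSK126, 0.434, 1.13 and 3.88 CPM. Pgf, placental growth factor, rose by 1.64 ± 0.25 (adjusted p = 0.025), Unc5b, a netrin receptor, by 1.30 ± 0.19 (adjusted p = 0.022), and Elfn1, a synaptic adhesion protein, by 1.10 ± 0.21 (adjusted p = 0.046, not called without any 1 of the 6 libraries). Wnt4, a Wnt ligand, reached 1.77, 5.57 and 10.9 CPM on day 6 without GSK126 and 7.94, 10.7 and 18.2 CPM with it, and was not called (1.51, adjusted p = 0.059).

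Ednra, the endothelin receptor A (chr8:77663029-77724452), had opposite orders on the 2 days. It was at 11.8, 20.8 and 26.3 CPM on day 1, and 13.2, 22.0 and 27.7 CPM with GSK126. On day 6 the order was 100, 26.4 and 13.4 CPM, and 48.7, 13.8 and 13.2 CPM with GSK126. Both day 6 controls were above every library with BMP2, and Ednra fell by 2.00 ± 0.20 on the log2 scale (adjusted p = 0.013). Gm12824, a poorly described locus, was the second member to fall, by 1.80 ± 0.22 (adjusted p = 0.018), from 26.3 to 17 and 2.74 CPM, and from 25.2 to 10.5 and 3.96 CPM with GSK126. Ret, the receptor for GDNF family ligands, Nrn1, a neurite factor, and Fam19a5 had no ratio of 1.5 left; Ret was at 10.7 to 28.6 CPM in the day 1 libraries and at 1.38 CPM or less on day 6, and Fam19a5 at 2 read pairs or fewer. Igfbp5, a binding protein for insulin-like growth factors, had day 6 ratios from 0.143 at 10 ng/ml to 3.42 at 50 ng/ml with GSK126. Tnfrsf19, a TNF receptor family member, was at 4.36 to 14.7 CPM on day 1 and 190 to 495 CPM on day 6, with ratios of 2.00 and 1.65 without GSK126 and 0.701 and 0.432 with it. Fgfr3, a fibroblast growth factor receptor of growth cartilage and bone, and Tmeff2 were at 2.08 to 2.87 and 2.32 to 2.39 times their controls at 50 ng/ml and under 1.5 times at 10 ng/ml. Gpr56, an adhesion G protein-coupled receptor, was under 2 CPM in all day 6 libraries, and so was Fibcd1, whereas Tnfrsf23 was between 11.3 and 28.1 CPM with ratios of 1.05 to 2.49.

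Enzymes and membrane traffic made up 12 members, with 5 that kept the ratio in all 4 libraries and 3 that rose. Ptgs2, the inducible cyclooxygenase that makes prostaglandins (chr1:150100124-150108012), was at 68.4, 166 and 224 CPM on day 1, and 59.0, 144 and 195 CPM with GSK126. The day 6 levels came to 6.76, 13.5 and 45.3 CPM, and 11.9, 27.7 and 65.6 CPM with GSK126. Its level was lower on day 6 in every condition, but the 50 ng/ml ratios were larger than on day 1, at 6.69 and 5.52, and it rose by 1.98 ± 0.14 (adjusted p = 0.008). Sytl2, a Rab27 effector of vesicle release, rose by 1.55 ± 0.10 (adjusted p = 0.008), and Optn, the autophagy receptor optineurin, by 1.77 ± 0.25 (adjusted p = 0.021), from 29.9 to 73.0 and 211 CPM without GSK126. Spns2, the exporter of sphingosine 1-phosphate, kept its ratio (6.77 and 14.6, and 3.15 and 2.78 with GSK126) but was not called (2.48 ± 0.54, adjusted p = 0.056), and Ston2, an endocytic adaptor, was at 1.53 to 7.76 times. Gcnt2 and Ppp1r3b were at 1.5 times or more only at 50 ng/ml. Acsbg1 and Rnf125 were mixed, and the fatty acid binding protein Fabp7 and the carriers Slc43a2 and Slc25a32 had no ratio of 1.5 left, with highest values of 1.36, 1.18 and 1.46.

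Among adhesion proteins and proteases, 2 members rose. Adam12, a membrane protease, was at 28.1, 42.1 and 216 CPM on day 6, and 32.7, 94.5 and 212 CPM with GSK126, against 50.5 to 106 CPM on day 1. Both 50 ng/ml libraries were above the whole day 1 range, and Adam12 rose by 2.09 ± 0.29 (adjusted p = 0.021). Itga6, a laminin receptor subunit, rose by 1.23 ± 0.16 (adjusted p = 0.019). Prss46, a serine protease, had no reads in the day 6 vehicle library and 52 read pairs (1.66 CPM) at 50 ng/ml, at least 21.6-fold higher than 3 read pairs in vehicle; with GSK126 it went from 0.332 to 2.67 CPM. Adam19, a related metalloprotease, was at 1.7 and 1.66 times its control without GSK126 and at 0.48 and 0.666 times with it. Antxr1 was at 1.5 times or more only at 50 ng/ml with GSK126.

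Genes of G proteins, kinases and the cytoskeleton were 12, and only Orai2, a calcium channel of the store-operated kind, rose past the threshold (0.71 ± 0.08, adjusted p = 0.016). Insc, an adaptor of spindle orientation, kept the ratio in all 4 libraries. It was at 34.4, 58.1 and 67.7 CPM on day 1, and 46.1, 70.0 and 83.0 CPM with GSK126. Day 6 gave 11.9, 82.2 and 191 CPM, and 82.5, 168 and 210 CPM with GSK126. All 4 ratios were larger than on day 1, at 6.93, 16.1, 2.03 and 2.55, with the vehicle library far below the others, and the change was not called (2.28 ± 0.61, adjusted p = 0.086). Rgs3 and Rgs4, which shorten G protein signals, differed: Rgs3 was at 51.1, 35.1 and 84.9 CPM, and 65.7, 62.0 and 193 CPM with GSK126, while Rgs4 was at 17.3 to 75.5 CPM in the day 1 libraries and at 2.38 CPM or less on day 6. Baalc and Gprin3 had ratios of at least 1.5 at 50 ng/ml. Tubb3, a neuronal tubulin, was at 12.2, 83.5 and 105 CPM without GSK126 and at 54.2, 59.4 and 43.1 CPM with it; neural and glial markers without Tubb3 summed to 49.1 to 101 CPM without BMP2 and 8.35 to 14.9 CPM with it on day 6, with Syt1 and Gfap at or under 3 read pairs, and their part in the result was not tested. Myo1d kept its ratio only without GSK126 (1.92 and 2.40), Dpysl3 and Prkg1 reached it only at 50 ng/ml with GSK126 (2.89 and 1.59), and Rhou and Ptpn7 nowhere.

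Of the 4 leukocyte and keratin genes, 3 rose. Cd244 (chr1:171559193-171585316) was at 6.52, 21.7 and 31.4 CPM on day 1, and 5.12, 19.5 and 29.9 CPM with GSK126. Day 6 gave 0.897, 7.39 and 36.9 CPM, and 3.85, 17.2 and 58.9 CPM with GSK126. The controls were below those of day 1 and the 50 ng/ml libraries were not, which gave ratios of 8.25, 41.2, 4.47 and 15.3 and a rise of 3.64 ± 0.33 (adjusted p = 0.011). The leukocyte and osteoclast markers without Cd244 summed to 75 to 78.2 CPM without BMP2 and 78.2 to 81.3 CPM with it on day 1, and to 236 to 278 CPM and 190 to 305 CPM on day 6, and Emr1 and Tyrobp were at or under 3 read pairs throughout; their part in the result was not tested. Krt14, a keratin of basal epithelium, was at 0.307, 1.52 and 4.79 CPM on day 6, and 0.689, 2.03 and 4.81 CPM with GSK126, and rose by 2.71 ± 0.32 (adjusted p = 0.017). Ifi204, an interferon-inducible gene of a family of close relatives whose reads the counting could split, rose by 1.41 ± 0.23 (adjusted p = 0.029). Havcr2, a checkpoint receptor of T cells, was under 1 CPM on day 6.

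More members had a wide dose step on day 6 than on day 1, and so had more of the genes tested. The 50 ng/ml library was at least 1.5 times the 10 ng/ml library at both GSK126 levels in 33 members (36.3%, against 1.74% of the genes tested). On day 1 these were 6 members (6.59%, against 0.158%), so the increase was not particular to the members. It was merely higher at both in 67 members on day 6 (73.6%, against 17.9%). In the test of 50 against 10 ng/ml 1 member passed (1.1%, against 0.00829%) and no member was lower (0.0415% of the genes tested), but 49 members had an unadjusted p under 0.05 (53.8%, against 16.3%) and 80 a log2 fold change above 0 (87.9%, against 48.4%). Smad6 was at 1.66 ± 0.21, with an adjusted p of 0.083. This count depends on single libraries: it was 35 without the vehicle library (1.95% of the genes tested), 31 without the GSK126 library (1.65%) and 0 without any other, and DESeq2 called 36 higher (2.89%) and 1 lower (3.57%) while limma-voom called none.

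GSK126 raised 8 members on day 6 (8.79%, against 3.94% of the genes tested) and lowered 3 (3.3%, against 3.96%) in the fit with both BMP2 doses. Lgr6 rose most, by 3.88 ± 0.37 (adjusted p = 0.010), followed by Ibsp by 1.71 ± 0.32 (adjusted p = 0.044), Ltbp2 by 1.30 ± 0.22 (adjusted p = 0.036), Ptgs2 by 0.83 ± 0.12 (adjusted p = 0.025) and Rgs3 by 0.83 ± 0.16 (adjusted p = 0.045). Klf10, Col15a1 and 6330416G13Rik, named Tmem268 in RefSeq, rose by 0.42 to 0.70. Postn fell by 1.09 ± 0.16 (adjusted p = 0.028) and Has2 by 1.08 ± 0.21 (adjusted p = 0.045). Both counts went to 0 without the 10 ng/ml library and without the 10 ng/ml library with GSK126, to 22 higher (5.85% of the genes tested) and 7 lower (5.29%) without the vehicle library, and to 20 higher (5.1%) and 4 lower (4.84%) without the GSK126 library, and no single call was kept in every alternative. By level alone, Ibsp, Cd244, Prss46, Lgr6, Dmp1, Ltbp2, Rnf125, Wnt4 and Klf10 were at least 1.5 times higher with GSK126 at all 3 BMP2 levels (9.89%, against 2.61%). No member had been on day 1, when the share of the genes tested was only 0.158%, so the share was larger on day 6 over all genes too. Dmp1 was not called (2.24 ± 0.52, adjusted p = 0.069), nor was Cd244 (1.27 ± 0.27, adjusted p = 0.056).

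Whether the BMP2 effect itself differed with GSK126 was tested with an interaction term, in which both BMP2 doses count as 1 level. The differences between 10 and 50 ng/ml at each GSK126 level are then the only scatter of the fit. A dose step therefore widens the error, and the members' median log2 fold change for 50 against 10 ng/ml was 0.75. For members with such a step the test could hardly pass. No member passed in edgeR (0.0% of the genes tested), 10 had an unadjusted p under 0.05 (11%, against 3.46%), DESeq2 called 4 lower (0.431% of the genes tested) and none higher (0.0829%), and limma-voom none. A p that misses the threshold does not show that the BMP2 effects were alike. The values run both ways. In 10 members (among them Creb3l1, Zfp862, Tubb3, Adam19, Myo1d, Tcf7, Tnfrsf19, Cthrc1 and Rnf125) the ratio was at least 1.5 at both doses without GSK126 and at neither dose with it. In 9 others (Igfbp5, Olfml2b, Rgs4, 6330416G13Rik, Antxr1, Acsbg1, Klf10, Dpysl3 and Prkg1) it was reached only at 50 ng/ml with GSK126. These differences were not shown by a test. How often the genes tested had either pattern was not counted, so the counts give no trait of the members. Acsbg1 had only 10 read pairs at 50 ng/ml with GSK126, against 3 in its control.

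Levels also differed between the days where no BMP2 was given. At both GSK126 levels 43 members were at least 1.5 times lower on day 6 than on day 1 (47.3%, against 12.0% of the genes tested) and 20 at least 1.5 times higher (22.0%, against 9.44%); no test was made, since the day 1 libraries chose the members. Among those that were lower were Smad6, Smad7, Smad9, Id2, Hes1, Atoh8, Dlx2, Ptgs2 and Lgr6. Among those that were higher were Ibsp, Alpl, Tcf7, Tnfrsf19, Col15a1, Plagl1 and Ednra. Under 2 CPM in all 6 day 6 libraries were 12 members (Pparg, Fibcd1, Smoc1, Baalc, Gpr56, Fabp7, Ccbe1, Fam19a5, Ret, Acsbg1, Havcr2 and 6330512M04Rik), for which day 6 ratios rest on few reads. Compared per gene length in the deposited RPKM, the most abundant member in the day 1 libraries was Postn at 288 to 649 RPKM, ahead of Creb3l1 at 61.8 to 148 RPKM and Tnc at 43.7 to 138 RPKM. On day 6 Ibsp, at 97.6 to 1620 RPKM, was above Postn, at 174 to 742 RPKM, in every library but vehicle.

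Set among the rest of their pathways, the members are a selection. Over all genes tested, 0.755% met the day 1 rule, and on day 6 3.16% rose with BMP2 and 5.56% fell. A short list that holds no member is therefore near the share over all genes. Of 16 BMP-SMAD target genes listed, 6 were members (Id2, Smad6, Smad7, Smad9, Bambi and Atoh8), and on day 6 the list had 6 rises and 1 fall with BMP2, its median log2 fold change being 0.95 (0.00 over all genes tested); the rises outside the members were Id3 and Hey1 and the fall was Id4. None of 23 BMP ligands, receptors and signalling SMADs was a member, and of the 14 tested 2 rose and 2 fell (median -0.03). Of 20 antagonists and inhibitors 4 were members, and 4 rose and 4 fell out of 18 tested (median 0.03). Of 20 bone matrix and mineral genes 3 were members (Ibsp, Alpl and Dmp1), and 5 of 19 tested rose and 1 fell (median 1.91). Of 33 Wnt pathway genes Tcf7, Wnt4 and Lgr6 were members, and 3 of 25 tested rose and 4 fell (median 0.21). None of 22 immediate early genes was a member, and 5 rose and 2 fell on day 6 (median 0.28). Of 12 osteoblast transcription factors only Sp7 was a member, and 3 rose (median 0.59). Markers of other cells held no member among 9 of smooth muscle, which summed to 1170 to 2130 CPM without BMP2 and 464 to 1730 CPM with it on day 6 (of 6 tested, Des rose, and Acta2 and Lmod1 fell). The 10 endothelial markers held none either, and summed, with Cdh5, Kdr, Tie1, Emcn and Cldn5 at or under 3 read pairs throughout, to 44.5 to 62.5 CPM and 20 to 49.1 CPM (Vwf rose and Flt1 fell). Their part in the members' values was not tested.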

How the data were processed

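Total RNA of the 12 libraries was prepared with an Illumina mRNA kit, per the labels' protocols. The authors deposited 1 table with raw gene counts and RPKM values (counts scaled by gene length and library total) per library, beside gene positions and coding length. The submitters' processing notes name mm10, bcl2fastq, TopHat2 2.0.6 and HTSeq. Settings for counting and strand were not given in the sources used here, so reads of overlapping, antisense and closely related genes cannot be told apart. Rn45s was left out of all totals. None of 69 rows that share a name met the rule.

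The 4 contrasts of day 6 were tested on the deposited counts with edgeR 4.0.16 (R 4.3.3) quasi-likelihood tests, TMM scaling and Benjamini-Hochberg adjustment over 12056 genes, in fits of the 6 day 6 libraries with 4 coefficients and 2 residual degrees of freedom. The additive fit had terms for GSK126 and each BMP2 dose, and the interaction fit crossed GSK126 with any BMP2. The error given after ± is the standard error of the log2 fold change. Ratios set values under 3 read pairs to 3 pairs; intervals are 95% Poisson intervals on read pairs and, like this floor, cover counting error only. RPKM served only to compare levels between genes.

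The members, gene lists, designs and the rule for named genes were chosen with earlier results of these data known, and the grouping by role was made after the members were seen. Named with values by that rule were the 12 largest day 1 rises, the largest day 6 calls, members of the pathway and marker lists, and members nearest the threshold or of each pattern; other members are named after their values were seen, and 2 members are counted in all totals but not reported here by name. The fits were tested on simulated counts with known changes. Alternatives were DESeq2 1.42.0, limma-voom (limma 3.58.1), other scalings, filters and thresholds, a fit of all 12 libraries, counts halved to read pairs, and each day 6 library left out.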

Additional observations from a re-analysis of the deposited data

Results flagged for a closer look

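In 9 members every BMP2 library was above its control on day 1 and every one was below it on day 6 (9.89%, against 38.4% of the genes tested that were below 1 in all 4 libraries of day 6); the difference between the days was not tested, since the day 1 libraries chose the genes. Ednra was at 1.67 to 2.23 times its control on day 1 and at most 0.284 on day 6, and Gm12824 at 1.66 to 2.04 times and at most 0.645; both also fell in the day 6 test. Postn was at 1.68 to 2.12 times and at most 0.797, 6330512M04Rik at 1.52 to 3.16 times and at most 0.719, and Ptpn7 at 1.58 to 1.88 times and at most 0.844. Nrn1 was at 1.92 to 2.48 times and at most 0.848, and Plagl1 at 1.89 to 2.88 times and at most 0.895. Ccbe1 had at most 14 read pairs in a day 6 library. With GSK126 it had 3 read pairs in the control and 2 in each BMP2 library. Its ratios there, 0.854 and 0.951, were set by the floor and compare only library totals. Snai2 was at most 0.985, a difference too small to set beside its day 1 range of 1.53 to 1.72.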

How the results depend on the processing

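No paired analysis was possible because each condition has 1 library and the labels carry no replicate numbers. The members rising with BMP2 on day 6 numbered 49 with DESeq2 (8.11% of all genes tested), 53 in a fit of all 12 libraries (13.3%) and 7 to 43 with a library left out, and those falling 4 (9.44%), 6 (15.5%) and 2 to 4. For 50 against 10 ng/ml the rises were 36 with DESeq2 (2.89%), 4 with no filter on low counts (0.0788%), 41 in the fit of all 12 libraries (5.33%), 0 with limma-voom and 0 to 35 with a library left out, and the falls 1 with DESeq2 (3.57%), 1 with all 12 libraries (6.47%) and 0 to 1. For GSK126 the rises were 24 with DESeq2 (8.42%), 30 with all 12 libraries (14.3%) and 0 to 22, and the falls 6 with all 12 libraries (14%) and 0 to 7. DESeq2 called 4 members lower (0.431%) for the interaction, which could not be fitted without the vehicle or the GSK126 library. A fit without 1 library has 1 residual degree of freedom. Ibsp lost its BMP2 call with DESeq2 (adjusted p = 0.095; 0.0034 to 0.12 over its alternatives). No named result reversed: of the values of 54 named results under the alternatives, 534 stayed on their side of the threshold, 94 lost it and 74 gained it. A threshold of 2 times in place of 1.5 left 25 members, and the lower threshold tried gave 215. On day 6 a ratio of at least 2 held in all 4 libraries in 6 members, was nowhere reached in 28 and reversed in 1; at the lower threshold these were 34, 7 and 4, with 1 member raised only at the low dose. With TMM factors 1 member was raised only at the low dose and 1 reversed. Without 1 BMP2 library, 20 to 28 members kept the ratio. For these variants of the day 6 patterns, shares over the genes tested were not counted. With Rn45s in the totals 87 genes met the rule, 84 of them members, and with TMM factors 95, 83 of them members. Each condition has 1 library. For members under 2 CPM on day 6, depth limits the ratios.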
